A study of Mus musculus with 2 samples.

Results

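The MYB proteins and the MYC-MAX network are transcription factors that set the balance between proliferation and differentiation in blood progenitors. Their RNA levels were described here in mouse megakaryocyte-erythroid progenitors (MEP), the bone marrow cells that give rise to red blood cells and platelets. The 10 genes were chosen by family and by name: the MYB family (Myb, Mybl1, Mybl2), the MYC genes Myc and Mycn, their shared partner Max, and the MAX-binding repressors Mxd1, Mxd4, Mxi1 and Mnt. They are 10 of 21474 protein-coding genes and of 43346 Ensembl gene rows in the deposited tables. The data were total RNA-seq of MEP from male C57BL/6J mice aged 5 to 6 weeks, in 2 libraries of 1 group, labelled as biological replicates 1 and 2. No genetic change or treatment is named in the labels, and no second cell type or condition stands beside them. The libraries have separate biosample entries but the same donor entry. Whether separate mice gave the cells is not stated, and an SD over the libraries may measure technical spread. With 1 group nothing could be tested between conditions, and every value is a description.

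MYB (c-MYB) is a DNA-binding activator that keeps haematopoietic progenitors dividing, and its level falls as red cells and platelets mature. MYBL2 (B-MYB) is found in most dividing cells, where it joins the MuvB complex to drive genes of late cell cycle, while MYBL1 (A-MYB) is best known for its role in male germ cells. MYC and MYCN cannot bind DNA alone. Each pairs with MAX to bind E-boxes, above all the sequence CACGTG, and to activate genes of growth and ribosome production. The MXD proteins, MXI1 and MNT also pair with MAX, bind the same E-boxes and recruit the SIN3 histone deacetylase complex, so that MAX can serve either activation or repression. In red cell development a decline of MYC accompanies the last divisions, and MXD proteins are known from cells that leave the cycle.

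Replicate 1 held 39919884 expected counts and replicate 2 held 48043010. The 7 erythroid and MEP markers all had 1 TPM or more in each library, with summed TPM of 915.8 in replicate 1 and 915.02 in replicate 2, most of it the carbonic anhydrase gene Car1, with 723.14 TPM in replicate 1 and 707.62 TPM in replicate 2. TPM, a transcript's share scaled over all rows of a table, is a level per length and was used to compare genes. Nuclear protein-coding genes other than globins held 25.5% of all TPM in replicate 1 and 20.6% in replicate 2, so that the same TPM stands for unlike shares of them. Levels were therefore compared between libraries on counts scaled by TMM, a method that equalises libraries by their trimmed mean log ratio. Of the 10 genes, 7 had 1 TPM or more in each library, beside 39.4% of all protein-coding genes. The exceptions were Mybl1 and Mycn, below 1 in replicate 2, and Mnt, below 1 in both.

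**Figure D1:**
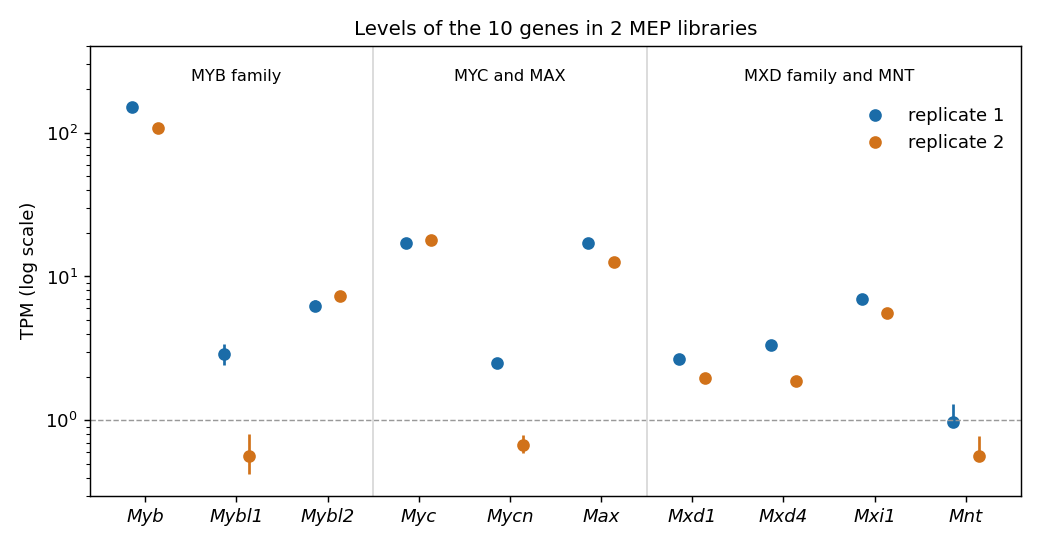
TPM (log scale) of the 10 genes in replicate 1 and replicate 2, grouped by family, with bars for the authors' interval and a dashed line at a TPM of 1. Myb stands above the other 9 genes in both libraries, and Mybl1 and Mycn lie above the line in replicate 1 and below it in replicate 2.

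Myb had the highest level of the 10 genes. Its TPM was 150.37 in replicate 1 and 107.92 in replicate 2 (129 ± 30.0, SD, n = 2), from 40978 and 42331 expected counts. That placed it at rank 241 among the protein-coding genes of replicate 1 and at rank 286 in replicate 2. The gene (ENSMUSG00000019982.10) lies on the minus strand at chr10:21124935-21160984 of mm10. Mybl2 had 6.25 TPM in replicate 1 and 7.32 TPM in replicate 2 (6.79 ± 0.76, SD, n = 2). Mybl1 had 2.91 TPM in replicate 1 and 0.57 TPM in replicate 2 (1.74 ± 1.65, SD, n = 2), from 309 and 133 counts. Myb thus exceeded Mybl2 in both libraries, by 24.1-fold in replicate 1 and 14.7-fold in replicate 2, a mean log2 TPM ratio of 4.24 ± 0.50 (SD, n = 2). Myb over Mybl1 was 51.7-fold in replicate 1 and 189-fold in replicate 2. Mybl2 over Mybl1 was 2.15-fold in replicate 1 and 12.8-fold in replicate 2. The order Myb, Mybl2, Mybl1 was the same in both libraries, but the distance to Mybl1 differed between them by more than that to Mybl2.

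Myb RNA was assigned to 3 annotated transcripts. Myb-201 held 60.9% of the gene's TPM in replicate 1 and 75.5% in replicate 2, and Myb-203 held 34.7% in replicate 1 and 22.9% in replicate 2. Myb-202, a transcript with a retained intron and no coding sequence, held 4.36% in replicate 1 and 1.69% in replicate 2. Myb-203 contains 357 coding bases, or 119 codons, that Myb-201 lacks, in an added exon at chr10:21144969-21145325. Longer c-MYB forms with an added internal exon are known products of the gene. The level of Myb-203 was a TPM of 52.21 in replicate 1, with an authors' interval of 50.2 to 53.0, and 24.67 in replicate 2, with an interval of 23.7 to 25.3. The shorter coding form led in both libraries, and the longer one alone still exceeded every other gene of the network. The start of the added exon is shown because its presence separates both forms. The 18 lower-case bases end the exon before it and the 60 capitals, at chr10:21145266-21145325, are the first of its bases, read on the minus strand from coding base 1204 of Myb-203.
Myb-203 added exon: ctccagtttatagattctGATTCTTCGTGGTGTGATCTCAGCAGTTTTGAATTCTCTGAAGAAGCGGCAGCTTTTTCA

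Mybl2 was led by its full coding transcript Mybl2-201, with 78.4% of its TPM in replicate 1 and 81.3% in replicate 2. Mybl1 was led by Mybl1-205, a model of only 799 bases, with 63.6% in replicate 1 and 71.9% in replicate 2. These shares rest on 97.55 expected counts for Mybl1-205 in replicate 1 and 31.35 in replicate 2. The full-length Mybl1-201, of 4980 bases, had 0.24 TPM in replicate 1 and 0.16 TPM in replicate 2. The effective length of Mybl1, an average over its models, was 1162 bases in replicate 1 and 1748 in replicate 2. TMM-scaled counts of Mybl1 differed by 2.67-fold between the libraries, less than its TPM did.

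Myc and Max were the next highest genes. Myc, at chr15:61985391-61990374, had 17.08 TPM in replicate 1 and 17.99 TPM in replicate 2 (17.5 ± 0.64, SD, n = 2). Max, at chr12:76937269-76962201, had 17.05 TPM in replicate 1 and 12.62 TPM in replicate 2 (14.8 ± 3.13, SD, n = 2). Mycn had 2.51 TPM in replicate 1 and 0.68 TPM in replicate 2 (1.60 ± 1.29, SD, n = 2), from 557 and 209 counts. Myc was the main MYC gene in both libraries, 6.80-fold over Mycn in replicate 1 and 26.5-fold in replicate 2. The mean log2 TPM ratio of Myc over Mycn was 3.75 ± 1.39 (SD, n = 2), and most of its spread lay in Mycn. Max and Myc were level in replicate 1, with a log2 ratio of -0.0025 and overlapping authors' intervals, while in replicate 2 the ratio of Max over Myc was -0.51 and the intervals did not overlap.

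The Max transcripts differed between the libraries. Max-201 had a TPM of 11.52 in replicate 1 and of 11.52 in replicate 2, while Max-202 had 5.53 in replicate 1 and 1.10 in replicate 2. Max-202 thus held 32.4% of Max in replicate 1 and 8.72% in replicate 2, from 899 and 263 expected counts. The authors' intervals of the Max-202 TPM, 4.29 to 6.57 in replicate 1 and 0.72 to 1.60 in replicate 2, did not overlap. Max-202 carries 27 more coding bases, or 9 codons, in a small exon at chr12:76961263-76961289 that starts at its coding base 37. Both MAX forms are known proteins, and they differ just before the basic region that contacts DNA. The junction is printed for both transcripts, read on the minus strand, with 18 bases of the neighbouring exons on each side and the 27 added bases in capitals.
Max-202: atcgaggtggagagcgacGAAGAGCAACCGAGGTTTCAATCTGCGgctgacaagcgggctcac
Max-201: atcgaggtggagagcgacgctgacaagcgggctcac

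The shares of the Myc transcripts also differed between the libraries. Myc-202 had 10.07 TPM in replicate 1 and 5.71 TPM in replicate 2, or 59.0% and 31.7% of the gene. Myc-201 and Myc-205 have identical exons and were given equal values, so that reads cannot separate them. Summed, they had 3.06 TPM in replicate 1 and 11.1 TPM in replicate 2, or 17.9% and 61.7% of the gene. They begin at position 61985391 of chromosome 15, which lies 173 bases upstream of Myc-202. Myc-207 held 23.1% in replicate 1 and had 0 counts in replicate 2, where its posterior mean share was 0.501% and the authors' upper bound 0.238 TPM. The total of Myc was nearly level between the libraries in TPM only, a scale on which the libraries are not directly comparable. By TMM-scaled counts, replicate 1 over replicate 2, its log2 ratio was -0.41. The models that made up Myc differed in share as well. Mycn also differed in the models that made it up. Mycn-201 held 88.0% of it in replicate 1 and had 0 counts in replicate 2, where its posterior mean share was 4.29% and the authors' upper bound 0.0851 TPM. Mycn-202 held 100.0% there, or 92.9% by posterior mean TPM. Mycn-201 and Mycn-202 have the same 1386 coding bases and differ in their first exon.

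**Figure D2:**
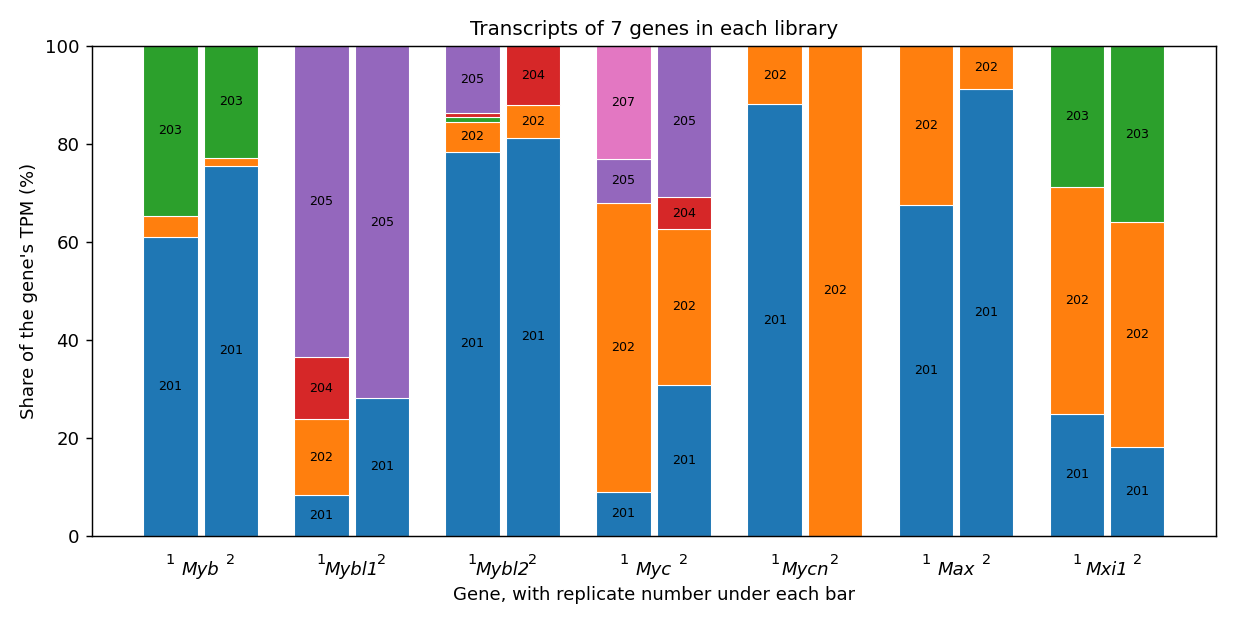
Share of each gene's TPM (%) held by its annotated transcripts in replicate 1 (left bar of each pair) and replicate 2 (right bar), for the 7 genes with more than 1 transcript above 0, with transcript numbers in the bars. Max-202 fills 32.4% of its bar in replicate 1 and 8.72% in replicate 2, Mycn is mostly 201 in replicate 1 and 202 in replicate 2, and the 3 Mxi1 transcripts keep the same leader.

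The 4 MAX-binding repressor genes were lower than Myc and Max. Mxi1 was the highest of them, with 6.97 TPM in replicate 1 and 5.61 TPM in replicate 2 (6.29 ± 0.96, SD, n = 2). Mxd4 had 3.33 TPM in replicate 1 and 1.88 TPM in replicate 2 (2.61 ± 1.03, SD, n = 2), and Mxd1 had 2.66 in replicate 1 and 1.96 in replicate 2 (2.31 ± 0.50, SD, n = 2). Mnt, which is expressed in many tissues and opposes MYC in dividing cells, had 0.97 TPM in replicate 1 and 0.57 TPM in replicate 2 (0.77 ± 0.28, SD, n = 2). Mxi1 alone matched the other 3 repressors together in replicate 1, with a TPM of 6.97 against 6.96, and exceeded them in replicate 2, with 5.61 against 4.41. Mnt was the lowest gene of the 10 in replicate 1 and tied with Mybl1 as the lowest in replicate 2.

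Myc and Mycn together had more RNA than the 4 repressor genes Mxd1, Mxd4, Mxi1 and Mnt, a direction that turned when Mga and Mxd3 were counted as repressors too. Myc and Mycn summed to 19.59 TPM in replicate 1 and 18.67 TPM in replicate 2, against 13.93 in replicate 1 and 10.02 in replicate 2 for Mxd1, Mxd4, Mxi1 and Mnt. The ratio was 1.41-fold in replicate 1 and 1.86-fold in replicate 2, a mean log2 ratio of 0.69 ± 0.29 (SD, n = 2). With Mga and Mxd3, which also pair with MAX, added to the repressors in an alternative chosen after seeing the data, Myc and Mycn stood at 19.59 against 37.2 TPM in replicate 1 and at 18.67 against 28.92 TPM in replicate 2. The mean log2 ratio was then -0.78 ± 0.21 (SD, n = 2). Max itself, the partner they share, had a TPM of 17.05 against 33.52 for the 6 partners among the 10 genes in replicate 1 and of 12.62 against 28.69 in replicate 2. Max RNA was therefore below the sum of these partners in both libraries, with a mean log2 ratio of -1.08 ± 0.15 (SD, n = 2). These are RNA levels, and the stability and translation of the proteins were not measured.

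Mxi1 was spread over 3 transcripts with the same leader in both libraries. Mxi1-202 held 46.3% in replicate 1 and 45.8% in replicate 2, Mxi1-203 held 28.9% and 36.0%, and Mxi1-201 held 24.9% and 18.2%. The authors' interval of the Mxi1-203 TPM in replicate 1 was wide, 0.87 to 2.88 around an estimate of 2.01. Mxi1-203 has 684 coding bases and Mxi1-202 has 576. The 108 bases, or 36 codons, by which Mxi1-203 is longer stand at its start, and in mouse the MXI1 form with the added start binds SIN3 and is the stronger repressor. Mxi1-202, without that start, held the largest share of any 1 transcript in both libraries. Its authors' intervals, 2.42 to 4.23 TPM in replicate 1 and 2.19 to 3.16 in replicate 2, overlapped those of Mxi1-203. The interval of Mxi1-203 in replicate 2 was 1.35 to 2.40, so which of both led is not settled. Mxi1-201, with 885 coding bases, also has coding sequence upstream of that of Mxi1-202. The 108 bases are shown because they are what separates Mxi1-203 from Mxi1-202. The 73 bases from the first coding exon are in capitals and the 35 from the next exon in lower case. They lie on the plus strand between positions 53329648 and 53331385 of chromosome 19.
Mxi1-203 coding start: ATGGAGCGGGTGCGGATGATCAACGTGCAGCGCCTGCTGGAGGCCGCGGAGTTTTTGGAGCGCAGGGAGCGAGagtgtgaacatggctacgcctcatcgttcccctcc

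Over all 10 genes the leading transcript was the same in both libraries for 9, Mycn being the exception, and Mxd1 has only 1 transcript. With the identical Myc-201 and Myc-205 summed, or with posterior mean TPM, the count was 8, since Myc then differed too. Transcript structures were read from a newer annotation than the one the tables were made with, and 10 of the 35 transcripts of these genes have another length there, so that ends of these models may differ from those the authors quantified. The 3 annotated genes that overlap the 10 were Gm26577 on the opposite strand of Myb, Mir7003 within Mybl2 and Gm10197 opposite Mxi1. Each had 0 counts in both libraries.

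Ordered by mean TPM the genes ran Myb, Myc, Max, Mybl2, Mxi1, Mxd4, Mxd1, Mybl1, Mycn and Mnt. Of the 9 neighbouring pairs in that order, 5 had ranges that overlapped between the libraries: Mybl2 and Mxi1, Mxd4 and Mxd1, Mxd1 and Mybl1, Mybl1 and Mycn, and Mycn and Mnt. Of these, Mycn was above Mnt within each library, while the order of the other 4 pairs differed between the libraries. The ranges of Myb and Myc, Myc and Max, Max and Mybl2, and Mxi1 and Mxd4 did not overlap, although Myc and Max were level in replicate 1. Together the 10 genes had 210.1 TPM in replicate 1 and 157.12 TPM in replicate 2, most of it Myb.

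Between the libraries, 2 of the 10 genes differed by more than 2-fold on TMM-scaled counts, both higher in replicate 1. Mycn had 13.7 CPM (counts scaled to a common library size) in replicate 1 and 4.43 in replicate 2, a log2 ratio of 1.62. Mybl1 had 7.61 CPM in replicate 1 and 2.82 in replicate 2, a log2 ratio of 1.42. None was lower by more than 2-fold in replicate 1. Among all protein-coding genes with a mean of at least 10 counts, 11.3% were more than 2-fold higher in replicate 1 and 10.03% more than 2-fold lower. Against these shares, 2 and 0 of 10 do not set these genes apart. The other 8 genes had log2 ratios between -0.60 for Mybl2 and 0.48 for Mxd4, with Myc at -0.41, Myb at 0.17, Max at 0.10, Mxd1 at 0.10, Mxi1 at -0.02 and Mnt at 0.44. Myb, Max, Mxd1 and Mxi1 were thus the most alike in both libraries. On log2(TPM + 1) the median of all protein-coding genes whose mean TPM was 1 or more itself stood at 0.27, beside 0.47 for Myb and 0.41 for Max.

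**Figure D3:**
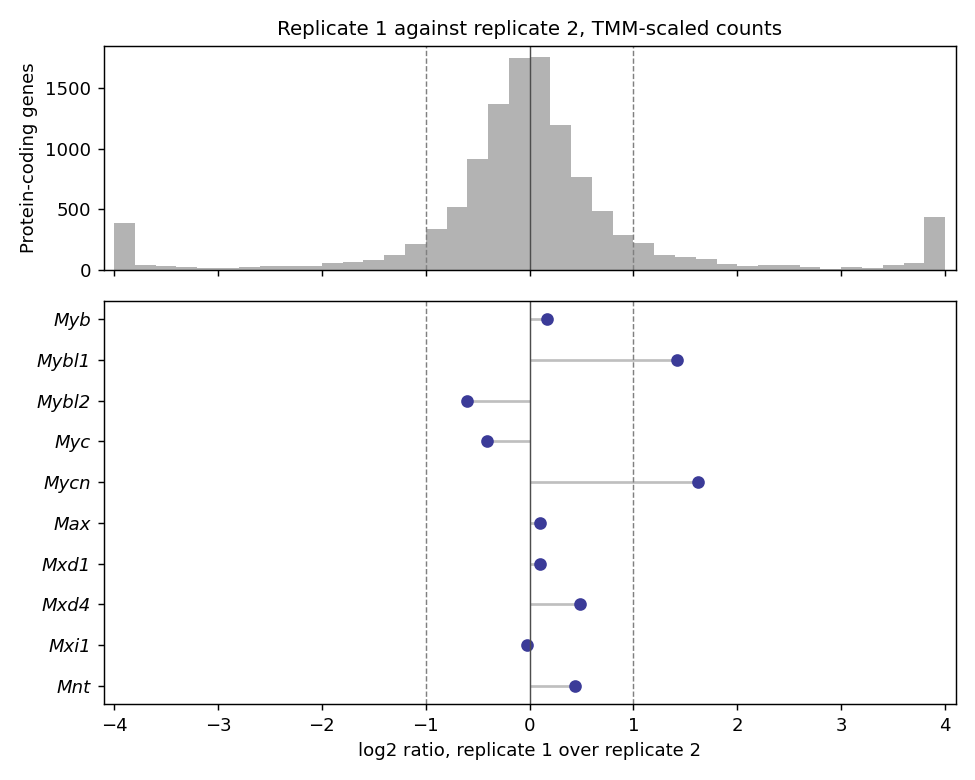
Log2 ratio of TMM-scaled counts, replicate 1 over replicate 2. The upper panel is a histogram of all protein-coding genes kept, with genes beyond either end gathered in the end bars, and the lower panel shows the 10 genes with dashed lines at a 2-fold difference. Mycn at 1.62 and Mybl1 at 1.42 lie past the right line, and the other 8 genes lie between the lines.

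Markers of other cells differed between the libraries as well. The 6 stem and multipotent markers summed to 33.29 TPM in replicate 1 and 6.41 TPM in replicate 2, and 3 of the 4 with enough counts, Cd34, Meis1 and Hlf, were more than 2-fold higher in replicate 1. Ly6a, a surface marker of this list, had 0 counts in both. The 6 megakaryocyte markers summed to 45.82 in replicate 1 and 18.35 in replicate 2, with 4 more than 2-fold higher in replicate 1 and 1 lower. The 8 granulocyte and monocyte markers summed to 60.06 in replicate 1 and 115.86 in replicate 2. Of these, 3 were more than 2-fold higher in replicate 1 (Cebpa, Elane and Mpo) and 3 were lower (S100a8, S100a9 and Ngp). The 6 lymphoid and NK markers summed to 7.22 in replicate 1 and 16.18 in replicate 2, with 3 lower in replicate 1, and Cd3e at 0 counts in both. All 7 erythroid and MEP markers had log2 ratios below 0 on TMM-scaled counts, that is lower in replicate 1, with a median of -0.50, and 1 of them, Zfpm1, was more than 2-fold lower. The part of these cells in the Mybl1 and Mycn difference was not tested. In bulk RNA, fewer cells of a type and less RNA per cell cannot be told apart.

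Promoter windows of RefSeq, from 250 bases before to 50 after a gene's start on GRCm38.p6, were at hand for 8 of the 10 genes (all but Myc and Mybl1), in 10 windows. The E-box CACGTG, which reads the same on both strands, was found in the windows of Max, Mnt and Mxd4, so for 3 of the 8 genes, in 3 of their 10 windows and in 7.15% of 32851 windows of the same length. Mxi1 has 3 of the 10 windows. The wider E-box CANNTG, which includes CACGTG, was found for 7 of the 8 genes, all but Mxd1, in 8 of the 10 windows and in 72.3% of all windows. A MYB-type motif, TAACNG or CAACNG on either strand, was found for 6 of the 8 genes, all but Myb and Mnt, in 7 of the 10 windows and in 49.7% of all windows. A match describes letters only, and binding was not measured.

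The windows with CACGTG are shown around the motif, in capitals and on the strand of the gene. In Max the motif begins 3 bases before the start site and runs over it. In Mnt it begins 123 bases upstream. In Mxd4 it begins 219 bases upstream, and the next 6 bases are a MYB-type match on the opposite strand. The whole printed stretches lie at chr12:76962246-76962278 on the minus strand for Max and at chr11:74830774-74830833 on the plus strand for Mnt. That of Mxd4 lies at chr5:34187897-34187956 on the minus strand.
Max: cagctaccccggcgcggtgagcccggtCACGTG
Mnt: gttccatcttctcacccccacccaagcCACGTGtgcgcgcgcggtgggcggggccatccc
Mxd4: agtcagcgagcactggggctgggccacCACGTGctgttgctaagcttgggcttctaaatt

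Levels varied widely over the rest of the extended MYC-MAX-MLX network. Of 6 genes, 3 had 1 TPM or more in each library, beside 39.4% of all protein-coding genes, so this count does not set the list apart. Mga, which pairs with MAX in a repressive complex, had 21.93 TPM in replicate 1 and 18.13 TPM in replicate 2. That was above Myc and Max in each library, although the authors' intervals of Mga and Myc overlapped in replicate 2. Mlx, the partner of the glucose-sensing MLXIP and MLXIPL, had 9.31 TPM in replicate 1 and 16.09 in replicate 2, and Mlxip had 1.36 and 1.76. On TMM-scaled counts Mlx differed less, with a log2 ratio of -0.11. Mlxipl had 0 counts in both libraries. Mycl, the remaining MYC gene, had 36 counts in replicate 1 and 139 in replicate 2 and a log2 ratio of -1.68, past 2-fold in the opposite direction to Mycn.

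Cofactors of both families were present. Of 14 genes for MYC cofactors and turnover, 13 had 1 TPM or more in each library, beside 39.4% of all protein-coding genes. Ruvbl1 and Ruvbl2, ATPases of chromatin complexes that MYC recruits, had TPM of 77.27 and 43.20 in replicate 1 and of 66.44 and 42.44 in replicate 2. Huwe1, a ubiquitin ligase that acts on MYC, had 43.17 in replicate 1 and 29.41 in replicate 2. Kat2a, the histone acetyltransferase GCN5, was the 1 gene of this list past 2-fold, with a log2 ratio of -1.04 (lower in replicate 1). All 10 SIN3 corepressor genes had 1 TPM or more in each library, and their median was 21.4 TPM in replicate 1 and 19.2 TPM in replicate 2. Rbbp7, a histone-binding subunit, had 82.47 in replicate 1 and 67.23 in replicate 2. The deacetylase gene Hdac2 had 64.26 in replicate 1 and 52.36 in replicate 2, and the scaffold gene Sin3a had 28.79 and 23.94. The median of all protein-coding genes, expressed or not, was 0.19 TPM in replicate 1 and 0.14 TPM in replicate 2, so that any list of expressed genes lies above it. By mean TPM all 10 corepressor genes, from 7.52 upward, exceeded Mxi1, at 6.29, and the lower Mxd1, Mxd4 and Mnt, whose proteins recruit them. Within replicate 2 this failed for Ing2, with 3.15 TPM against 5.61 for Mxi1. Ing2 had 15.51 TPM in replicate 1, although its expected counts were 1008 in replicate 1 and 1056 in replicate 2.

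All 7 genes of the MYB coactivator list had 1 TPM or more in each library, beside 39.4% of all protein-coding genes. The list also holds Mybbp1a, which is included as a MYB-binding protein gene. Psip1, a chromatin reader that joins MYB through menin and MLL, had 114.29 TPM in replicate 1 and 76.35 TPM in replicate 2. Mybbp1a, a nucleolar MYB-binding protein, had 49.65 in replicate 1 and 53.36 in replicate 2. Taf12, a TFIID subunit that MYB uses, had 18.95 in replicate 1 and 22.76 in replicate 2. All 11 MuvB genes and partners, with which MYBL2 works, had 1 TPM or more as well. Tfdp1, the dimer partner of E2F proteins, had 35.90 in replicate 1 and 46.90 in replicate 2. Rbbp4 had 24.79 in replicate 1 and 22.53 in replicate 2, and E2f4 had 19.36 and 27.60. On TMM-scaled counts no gene of the coactivator, MuvB and SIN3 lists was past 2-fold between the libraries.

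Genes known as targets of MYC were high. All 18 had 1 TPM or more in each library, beside 39.4% of all protein-coding genes. Their median was 123 TPM in replicate 1 and 107 TPM in replicate 2. The nucleolar protein genes led, Npm1 with 1712 TPM in replicate 1 and 1344 TPM in replicate 2, Nop58 with 783 and 557, and Ncl with 393 and 340. Nop58 stood above Ncl per length only, with 37231 against 119425 expected counts in replicate 1 and 38280 against 152508 in replicate 2. Srm, the gene of spermidine synthase, was the 1 target past 2-fold, with a log2 ratio of -1.31 (lower in replicate 1). All 10 known MYBL2 targets had 1 TPM or more as well, their median was 16.6 TPM in replicate 1 and 18.9 TPM in replicate 2, and none was past 2-fold. Top2a had 131.46 in replicate 1 and 95.65 in replicate 2, Cdk1 had 46.03 and 41.02, and Birc5 had 38.55 and 39.11. Many of these genes are active in any dividing cell, and target lists do not measure the factors.

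By genes past 2-fold, the 7 known MYB targets were the most uneven of the 8 partner and target lists, with 4 higher in replicate 1. Among all protein-coding genes with a mean of at least 10 counts, 11.3% were more than 2-fold higher in replicate 1. Cdk6, a cell cycle kinase, had 52.02 TPM in replicate 1 and 32.59 TPM in replicate 2. Kit, the stem cell factor receptor, had 42.99 in replicate 1 and 27.92 in replicate 2. On TMM-scaled counts these genes were within 2-fold. Cd34, Mpo and Elane were more than 2-fold higher in replicate 1, with log2 ratios of 2.79, 1.91 and 2.13, and Gfi1 had 19 counts in replicate 1 and 1 in replicate 2. Cd34, Mpo and Elane are also stem or granulocyte markers of the lists above, and Elane rested on 25 counts in replicate 1 and 5 in replicate 2. Gfi1 and Elane thus reached a mean of 10 counts only through replicate 1, where they are high, so they add no support to the count of 4. Myb itself had a log2 ratio of 0.17 on TMM-scaled counts.

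**Figure D4:**
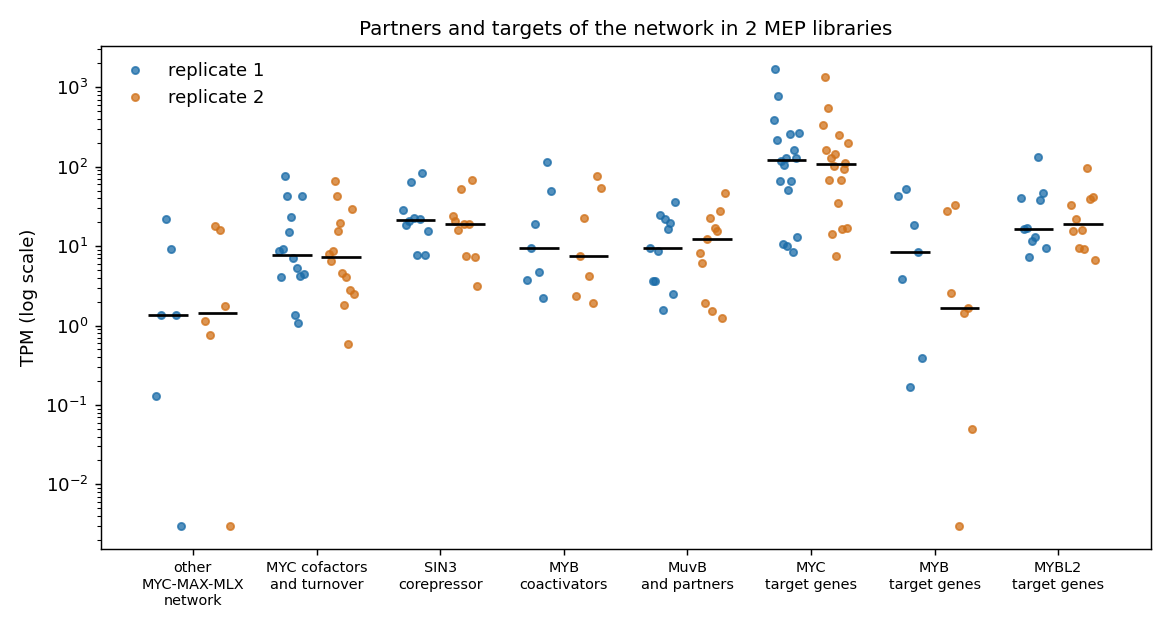
TPM (log scale) of each gene of 8 partner and target lists in replicate 1 (left) and replicate 2 (right), with black bars at the medians; genes listed at 0 are drawn at the lower edge, and sideways spread has no meaning. The MYC targets have medians of 123 and 107, and the MYB targets have medians of 8.53 in replicate 1 and 1.64 in replicate 2.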

How the data were processed

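Total RNA of MEP was sequenced after depletion of ribosomal RNA, per the labels, from 100 ng of RNA for each library. Per the file headers, the deposited tables give an expected count (estimated and not normalized), a TPM, a posterior mean TPM and interval bounds of the TPM for each gene and transcript. The level of that interval is not stated, and the bounds accompany the posterior mean, so that a TPM can lie just outside them, as for Myb in replicate 1. Genome build mm10 and GENCODE M4 were used by the authors, as a text file beside each table states. Which program estimated the values is not given in these sources. No libraries were pooled. Symbols, classes and transcript structures came from GENCODE M21 on the same assembly, for 42462 of 43346 gene rows. The 27229 rows without a symbol, of spike-ins, numbered entries and unmatched genes, were not described as genes. They did enter the totals of counts and TPM. The Ensembl rows among them with enough counts also entered the TMM scaling.

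Expected counts were rounded and scaled with TMM in edgeR 4.0.16 (R 4.3.3), with a prior count of 2, for genes with a mean of at least 10 counts. The script was checked on simulated data. DESeq2 1.42.0 gave size factors for an alternative. Other steps used Python 3.11.15, numpy 2.4.6, pandas 2.3.3 and matplotlib 3.10.9. A transcript with 0 counts is given with the authors' upper bound, since reads shared among transcripts add to the counting error. Fold differences between the libraries are replicate 1 over replicate 2 and have no p-value, since each side is 1 library. The genes and lists were chosen with earlier results of these data known. The rule for named genes took all 10 genes and, of each list, the 3 with the highest mean TPM, those at 0 counts in both libraries and those past 2-fold; for marker lists only part of these are named, chosen after their values were seen.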

Additional observations from a re-analysis of the deposited data

How the results depend on the processing

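Of 136 alternative values, 129 stayed within 1.5 times for a count, the SD of the libraries for a level or ratio of genes, or 0.3 for a log2 ratio between libraries, 6 moved further and 1 reversed. With 2 libraries a value without 1 of them always lies within that SD, so it says little. With Mga and Mxd3 added to the repressors, the log2 ratio of Myc and Mycn over them reversed to -0.78. With CANNTG in place of CACGTG, 7 genes had a match. On log2(TPM + 1), whose median over all genes is shifted, the log2 ratios between the libraries moved for Myb to 0.47, Mybl2 to -0.20, Myc to -0.07, Mycn to 1.06 and Max to 0.41. That of Mxi1, -0.02 on scaled counts, was 0.27 there. Mybl1 and Mycn were the genes past 2-fold under each of the 5 alternatives run. The 7 genes at a TPM of 1 became 10 when TPM was rescaled to the nuclear protein-coding genes other than globins, with 10 counts in both libraries or with a TPM of 0.1, and 7 and 9 with only replicate 2 or only replicate 1. With either replicate left out, the log2 ratio was 3.88 to 4.59 for Myb over Mybl2, 2.77 to 4.73 for Myc over Mycn, and 0.49 to 0.90 for Myc and Mycn over the 4 repressors. Among the other ratios, Mybl2 over Mybl1 ran from 1.10 to 3.68 and Max over Myc from -0.51 to -0.0025. Max over its partners among the 10 genes moved less, from -1.18 to -0.98, as did Mxi1 over Mxd1, Mxd4 and Mnt, from 0.0021 to 0.35. The TPM of Mybl1 ran from 0.57 to 2.91 and of Mycn from 0.68 to 2.51. Leaving out a replicate gives no value for ratios between the libraries, for the shared leading transcript or for motifs. The sum of identical transcripts and the addition of Mga and Mxd3 were chosen after seeing the data. No paired analysis was possible because there is 1 group. Precision is limited by the 2 libraries, and for Mybl1, Mycn and Mnt by their counts.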
